A study of Mus musculus with 3 samples.

Results

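The genes described here are 10 members of the p53 and cell cycle arrest system, chosen by name: Trp53, Mdm2, Cdkn1a, Cdkn2a, Cdkn2b, Ccng1, Bax, Bbc3, Trp53inp1 and Phlda3. All 10 were found among the 56833 genes of the deposited table. They were measured by bulk RNA sequencing of tdTomato-positive cells sorted from mouse ankle synovium, the tissue that lines the joint, and kept for 24 h on plates coated with collagen, with a stiffness of 0.2, 8 or 64 kPa, named soft, intermediate and stiff in what follows. The cells of all 3 groups carried the same alleles, Efhd1CreER, in which Efhd1 drives an inducible Cre recombinase, and Ai9, a tdTomato reporter that Cre switches on. The labels call the cells telocytes, interstitial cells with long thin processes. The age and number of the mice, and whether a library pooled several of them, are not given in the sources used here. The series asks how the stiffness of the matrix bears on the differentiation of these cells into fibroblasts.

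There was 1 library per stiffness level. No difference therefore has a replicate check, no p-value can be given, and a difference between cultures cannot be told apart from a difference between stiffness levels. Intervals are exact 95% intervals (Clopper-Pearson for ratios, Poisson for levels) of the read counts and hold no variation between cultures, and copies made by PCR count as separate reads in them, so they cover counting error only. In bulk RNA, fewer cells with a transcript and less of it per cell cannot be told apart.

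p53, the protein of Trp53, is a transcription factor that is held at a low level by the ubiquitin ligase encoded by Mdm2, itself a p53 target, and that is stabilised when DNA is damaged or the cell is otherwise stressed. Stabilised p53 switches on genes that halt the cell cycle, such as Cdkn1a, and genes that promote cell death, such as Bax and Bbc3. Cdkn2a and Cdkn2b lie side by side in 1 locus, whose products block the cyclin D kinases, and the Arf product of Cdkn2a also restrains Mdm2. Much of the control of p53 acts on the protein, which RNA levels do not show.

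The DNA element that p53 recognises is shown first, because it is what links several of these genes to p53. Its consensus is made of 2 adjacent blocks of 10 bases, each with 3 purines, a C, 2 bases that are A or T, a G and 3 pyrimidines, and it reads the same on both strands. A match was allowed at most 2 mismatches and none at the C and G. Within 3000 bases of the start of the canonical transcript in GRCm39, 4 of the 10 members held a match, against 5.87% of 21757 protein-coding genes. The members were chosen by name, several of them as p53 targets. A share above that of all genes is therefore no test of a link to p53. The matches are printed on the gene's own strand, and capitals mark the 4 bases at the centre of each block.
Cdkn1a: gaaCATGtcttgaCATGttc
Ccng1, upstream: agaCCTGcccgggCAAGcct
Ccng1, intron: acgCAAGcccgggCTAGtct
Cdkn2b: agaCATGtccggtCTTGctc
Bax: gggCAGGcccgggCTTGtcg

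The Cdkn1a match lies at chr17:29309902-29309921, on the plus strand, 2836 bases upstream of the canonical start. The upstream Ccng1 match lies at chr11:40646289-40646308, 170 bases before the canonical transcript start of that minus-strand gene, and the intronic one at chr11:40645763-40645782. The Cdkn2b match, at chr4:89226637-89226656, and the Bax match, at chr7:45115998-45116017, lie in introns of genes on the minus strand. Each has 1 mismatch to the consensus, except that of Bax, with 2. In the shorter RefSeq promoters of GRCm38.p6, which run from 250 bases before to 50 after a start, 9 members had an entry and 2, Cdkn1a and Ccng1, held a match, with the same letters as above, against 0.392% of 27025 genes. In these promoters the Cdkn1a match lay 51 bases before 1 of its 2 starts. For Cdkn1a and the upstream match of Ccng1 the 2 windows show the same sequences and are not separate findings. The choice of members by name limits both shares. The wider window was searched after the expression values had been seen. A match describes the sequence alone, since no binding was measured, and the absence of a match says nothing of the other members.

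The libraries held 25487064 (soft), 28081600 (intermediate) and 26474862 reads (stiff). Of the telocyte markers, Pdgfra was abundant, with 5118 to 6298 normalized counts (reads per gene divided by a size factor per library), while Cd34 stood at 235 to 318, Kit at 38.7 to 45.1, and Efhd1 at 3 to 10 reads, near the limit of 3 reads that a count of 0 allows. The 7 fibroblast markers were detected in each library, from Lum, at 607 to 787 normalized counts, to Col1a1, at 78648 to 151834, and 3 of them were higher and 4 lower in the stiff than in the soft library. All 12 macrophage markers were detected and their summed level was 28233, 35118 and 62307 normalized counts at 0.2, 8 and 64 kPa, an order shared with Trp53, Mdm2, Cdkn1a and Bbc3. Their part in the ratios of the members was not tested. Cd3e, Cd3g, Cd4 and the 3 erythroid genes had no read in any library. Of the 6 basophil and mast cell markers Cpa3, Ms4a2 and Fcer1a had none, whereas Mcpt8 was at 1134, 760 and 742 normalized counts at 0.2, 8 and 64 kPa and Gata2 at 710, 769 and 757. None of the 6 T and NK cell markers and none of the 6 endothelial markers reached a mean of 50 normalized counts. Of the cartilage and bone markers, in the same order of plates, Col2a1 was at 209, 330 and 576 and Sox9 at 467, 715 and 485. Of the Schwann markers Mbp was at 120, 156 and 280 and S100b at 173, 155 and 114. The mural markers Cspg4, Notch3 and Rgs5 were at 1642, 2496 and 2376, at 529, 601 and 512, and at 89.2, 57.5 and 84.1. Their part in the ratios of the members was not tested either.

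Trp53 itself was the member with the largest difference over the full range of stiffness. It occupies bases 69469669 to 69482701 of chromosome 11 (GRCm39, plus strand), and its canonical transcript has 11 exons. Its level was 2754 normalized counts at 0.2 kPa, 3216 at 8 kPa and 3548 at 64 kPa. The order followed stiffness, and the Poisson intervals of the 3 libraries did not overlap. Its log2 ratio, stiff to soft, was 0.37 (interval 0.29 to 0.44), a level 1.29 times as high, and ratios of this size or larger, in either direction, were found in 24.6% of the 11873 genes whose mean reached 50 normalized counts (the genes tested). The step from soft to intermediate, at 0.22, and that from intermediate to stiff, at 0.14, both had intervals above 0.

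Mdm2, the ligase that marks p53 for destruction (chromosome 10, 117524780 to 117546730, minus strand, 12 exons), followed the same order with smaller steps. It stood at 4425 normalized counts at 0.2 kPa, 4701 at 8 kPa and 4988 at 64 kPa. The soft and stiff libraries were apart by more than their counting intervals, with a log2 ratio of 0.17 (0.11 to 0.23). Each step was 0.09. When libraries were scaled to their total reads without mitochondrial and top genes, the stiff to soft ratio was 0.11. The first step was as low as 0.05 under other scalings, and so was the second.

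**Figure D1:**
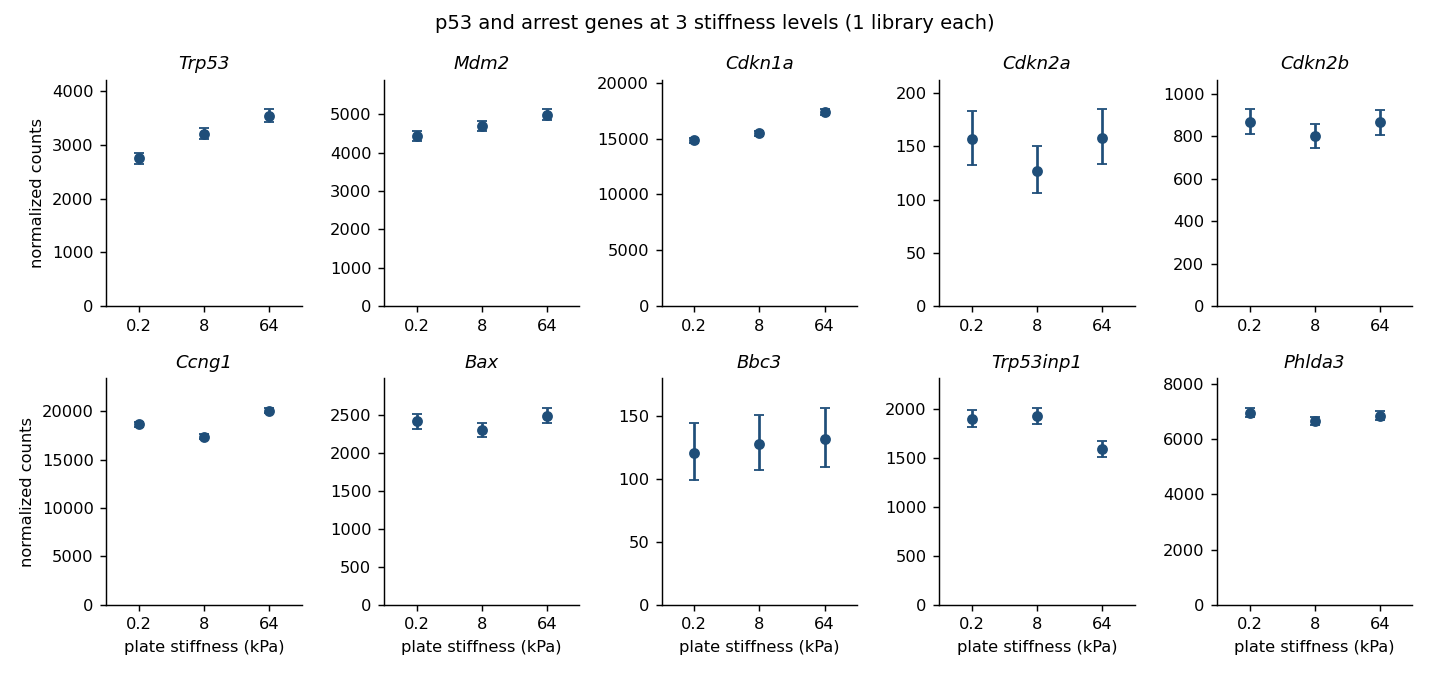
Normalized counts of the 10 members (vertical axes, each from 0) against plate stiffness in kPa (horizontal axes), 1 library per point, with exact 95% Poisson intervals of the reads as bars. The order soft, intermediate, stiff is seen for Trp53, Mdm2, Cdkn1a and Bbc3, and in no panel does the highest library exceed the lowest by more than 1.29 times.

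Cdkn1a encodes p21, an inhibitor of cyclin-dependent kinases and the best known arrest gene downstream of p53. It occupies bases 29309936 to 29319701 of chromosome 17 (plus strand), with 3 exons in its canonical transcript. It had 14838 normalized counts at 0.2 kPa, 15469 at 8 kPa and 17367 at 64 kPa. Its level thus also followed stiffness, and most of the difference lay in the second step, with log2 ratios of 0.06 (0.03 to 0.09) from soft to intermediate and 0.17 (0.14 to 0.20) from intermediate to stiff. The first of these was 0.02 under upper quartile scaling. Over the full range the log2 ratio was 0.23 (0.19 to 0.26), a size reached by 42.6% of the genes.

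Cdkn2a encodes 2 unrelated proteins, p16 Ink4a and p19 Arf, from different first exons, and a count per gene cannot separate them. It occupies bases 89192708 to 89212890 of chromosome 4 (minus strand), and GENCODE annotates 2 transcripts for it. Its reads were few, at 153 on the soft, 135 on the intermediate and 154 on the stiff plate, or 157, 127 and 158 normalized counts. The intermediate library was the lowest, with a log2 ratio to soft of -0.30 (-0.65 to 0.04) and a log2 ratio of stiff to intermediate of 0.31 (-0.03 to 0.66). Stiff and soft were nearly level, at 0.01 (-0.32 to 0.34). No difference in Cdkn2a was detectable at this depth, although ones of over 0.34 between stiff and soft would lie outside the interval.

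Cdkn2b, which encodes the inhibitor p15 Ink4b of the cyclin D kinases, lies beside Cdkn2a at 89223204 to 89229276 on the same strand of chromosome 4. It had 866 normalized counts at 0.2 kPa, 799 at 8 kPa and 864 at 64 kPa. As with Cdkn2a the intermediate library was lowest, and all intervals of its ratios included 0. With more reads than Cdkn2a, its interval for stiff against soft was narrower, from -0.14 to 0.14 around a log2 ratio of -0.003.

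Ccng1, which encodes cyclin G1, a p53 target that takes part in the feedback on p53 through Mdm2, was the most abundant member in normalized counts. It occupies bases 40639377 to 40646148 of chromosome 11 (minus strand). It had 18620.4 normalized counts at 0.2 kPa, 17377 at 8 kPa and 20048 at 64 kPa. The intermediate library was the lowest and the stiff the highest, so the ratio of stiff to intermediate, 0.21 (0.18 to 0.24), was larger than that of stiff to soft, 0.11 (0.08 to 0.14). Across all genes the ratios varied with transcript length and GC content, and after this trend had been subtracted the stiff to soft value was 0.26 and that of stiff to intermediate 0.29. Other scalings of the libraries moved the stiff to soft value the other way, to between 0.04 and 0.05 under 3 of them, so its size depended on the processing.

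Phlda3, a p53 target that restrains the kinase AKT at the membrane, occupies bases 135693809 to 135697686 of chromosome 1 (plus strand). It varied least of all members, with 6971 normalized counts at 0.2 kPa, 6659 at 8 kPa and 6851 at 64 kPa. The highest exceeded the lowest by 1.05 times. The intermediate to soft log2 ratio of -0.07 (-0.11 to -0.02) had an interval below 0, and that of stiff to soft was -0.03 (-0.07 to 0.02). Under 3 other scalings the latter lay between -0.09 and -0.08, outside this interval.

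Trp53inp1, whose nuclear protein is a p53 target that in turn promotes p53 activity and that also acts in autophagy, was the member that was lowest on the stiff plate. It occupies bases 11156412 to 11175230 of chromosome 4 (plus strand). It had 1904 normalized counts at 0.2 kPa, 1929.7 at 8 kPa and 1591 at 64 kPa. Soft and intermediate differed by less than the counting error, at a log2 ratio of 0.02 (-0.07 to 0.11), and the stiff library lay below both, at -0.26 (-0.36 to -0.16) to soft and -0.28 (-0.37 to -0.18) to intermediate. Its canonical transcript, of 6274 nt and with a GC content of 38.4%, is the longest of the members and the poorest in GC. Subtracting the length and GC trend gave a stiff to soft value of -0.08 and one of -0.12 for stiff to intermediate. The trend itself stood at -0.18 and -0.16 there, the larger part of both differences.

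Bax and Bbc3, named above as promoting cell death, had small ratios, those of Bbc3 with wide counting intervals. Bax, which permeabilises the outer mitochondrial membrane, occupies bases 45111015 to 45116325 of chromosome 7 (minus strand). It had 2413 normalized counts at 0.2 kPa, 2296 at 8 kPa and 2489.9 at 64 kPa. Its log2 ratio of stiff to soft was 0.05 (-0.04 to 0.13), and that of stiff to intermediate, 0.12 (0.04 to 0.20), was the one whose interval lay above 0. Other scalings gave as little as -0.02 for the former and 0.08 for the latter.

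Bbc3 encodes PUMA, a BH3-only protein that acts upstream of Bax. It occupies bases 16042318 to 16052130 of chromosome 7 (plus strand). It was the least abundant member, with 119.9 normalized counts at 0.2 kPa, 127 at 8 kPa and 131 at 64 kPa. All its intervals included 0, that of stiff to soft running from -0.24 to 0.50, so its ratio of 0.13, which was -0.004 with the length and GC trend subtracted, was not detectable as a difference at this depth.

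**Figure D2:**
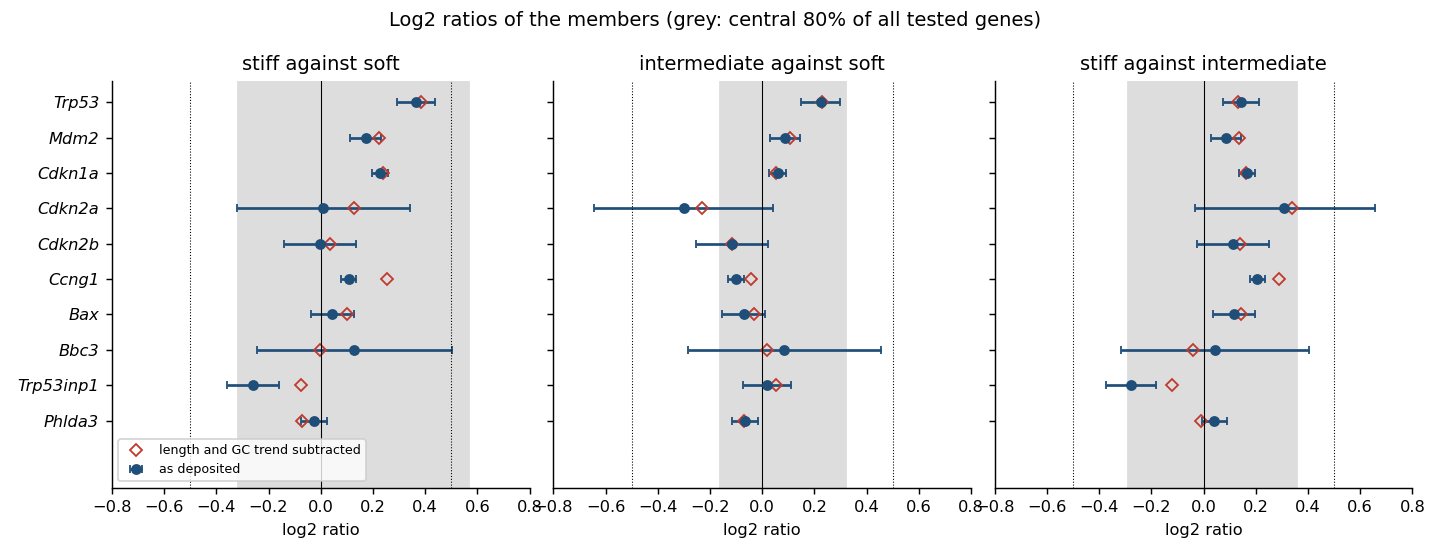
Log2 ratios of the 10 members (horizontal axes) in the 3 comparisons, as deposited with exact 95% counting intervals (filled circles) and with the length and GC trend subtracted (open diamonds). Dotted lines mark 0.5 in either direction and the grey band the central 80% of the 11873 genes tested. No member passes a dotted line, and Ccng1 and Trp53inp1 are the members whose diamonds lie farthest from their circles between stiff and soft.

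No member reached a log2 ratio of 0.5 in size, or 1.41-fold, in any comparison. Between stiff and soft this was 0 of 10 members, where 15.6% of the 11873 genes did so, 11.8% higher and 3.77% lower on the stiff plate. From 0.2 to 8 kPa it was 0 of 10 members against 4.6% of genes, and from 8 to 64 kPa 0 of 10 against 8.84%. At a log2 ratio of 1 the corresponding shares of all genes were 3.6%, 0.168% and 1.25%. At the lower threshold of 0.25, the share of genes was 38.9% over the full range, 18.3% for the first step and 28.7% for the second, against 2, 1 and 2 members. With only 10 members these counts do not set the members apart from the other genes. The largest member ratio between stiff and soft, that of Trp53, exceeded in size the ratios of 75.4% of the genes. All 10 members reached a mean of 50 normalized counts, so none was lost to that filter.

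The median log2 ratio of the members was 0.08 from 0.2 to 64 kPa, -0.02 from 0.2 to 8 kPa and 0.11 from 8 to 64 kPa, against medians of 0.00, 0.01 and 0.01 over all genes tested. Between stiff and intermediate 9 of 10 members were higher in the stiff library, Trp53inp1 being the exception, where 51.1% of all genes tested were higher. The counting interval left 0 in 6 of the 10 members, and in 48.3% of all genes. Between intermediate and soft 5 were higher and 5 lower, where 53.5% of genes were higher, and the interval left 0 in 5, against 35.3% of genes. Over the full range 7 were higher and 3 lower, with 51.1% of genes higher, and the interval left 0 in 5 members, against 57.1% of genes. These shares depend on the reads per gene, and none sets the members apart. Under 3 other scalings Bax (-0.01 to -0.02) and Cdkn2a (-0.05) fell below 0 over the full range, so the count of 7 depends on the scaling. The comparisons for the first and the second step both use the intermediate library, whose counting error enters them with opposite signs. With the length and GC trend subtracted, 7 of 10 were higher between stiff and intermediate, as Bbc3 (-0.04) and Phlda3 (-0.01) then lay below 0.

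**Figure D3:**
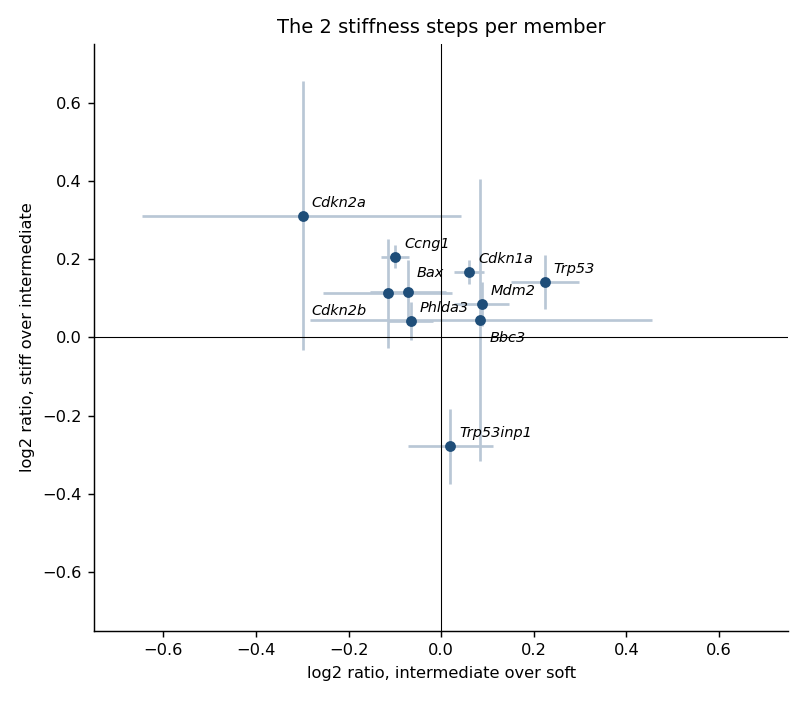
Log2 ratio of intermediate to soft (horizontal axis) against that of stiff to intermediate (vertical axis) for each member, with exact 95% counting intervals as bars. Trp53, Mdm2, Cdkn1a and Bbc3 lie above 0 on both axes, Trp53inp1 alone lies below 0 on the vertical axis, and the other 5 are below 0 on the horizontal and above 0 on the vertical axis.

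Levels between genes were compared per length, as TPM (reads divided by transcript length and scaled to the same total in each library), computed here with the length of the canonical GENCODE transcript. On this scale the mean over the 3 libraries was 724 for Cdkn1a, 466 for Ccng1, 261 for Phlda3, 216 for Bax, 150.4 for Trp53 and 133 for Mdm2. The other members were far lower, at 27.2 for Cdkn2b, 25.3 for Trp53inp1, 15.2 for Cdkn2a and 4.12 for Bbc3. The median over 11699 tested genes was 19.1 at 0.2 kPa, 19.8 at 8 kPa and 19.9 at 64 kPa, so Cdkn2a and Bbc3 were below the typical gene and the other 8 above it. Cdkn1a ranked between position 181 and 199 of all genes, above 99.0% of the genes with a read in each library. In this order Trp53 and Mdm2 overlapped over the libraries, and so did Cdkn2b and Trp53inp1, whereas the other neighbours did not. The order of the arrest inhibitors, with Cdkn1a far above Cdkn2b and Cdkn2b above Cdkn2a, was the same in all 3 libraries. No freshly isolated cells are among the samples, so it cannot be said from these data whether the levels of Cdkn1a or Ccng1 belong to culture.

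Near-identical copies and overlapping genes could share reads with some members. The pseudogene Trp53-ps is 94.96% identical to the Trp53 transcript over 1170 aligned nt, but held 7, 8 and 6 reads at 0.2, 8 and 64 kPa, against 2686, 3411 and 3460 for Trp53. Wrap53, whose exons overlap 263 nt of Trp53 exons on the opposite strand, had 582, 509 and 472 normalized counts, an order opposite to that of Trp53. The libraries were made with a stranded kit, but whether reads were counted by strand is not given in the sources used here. Nudcd2 overlaps 114 nt of Ccng1 on the opposite strand and stood at 2596, 2431 and 2347 normalized counts. Neither Wrap53 nor Nudcd2 followed its neighbour's order over the libraries. The longest overlap was that of Cdkn1a with Dino, a noncoding gene on the opposite strand, over 504 nt of exons. Dino was matched in the table by neither symbol nor identifier and is not analysed here. Gm56970, which shares 348 nt with Mdm2 on the opposite strand, had no read in any library. The one overlap on the same strand was that of Bax with Gm45808, over 192 of its 1856 exonic nt, and Gm45808 had no read in any library either. How reads in such shared exons were counted is not given in the sources used here.

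Among 30 other p53 target genes, 29 reached the mean of 50 normalized counts, and of these 4 were higher and 0 lower by at least 0.5 between stiff and soft, where 11.8% of all genes were higher and 3.77% lower, so the count was near that of all genes. Their median log2 ratio was 0.11, with 21 above and 8 below 0, against 51.1% of all genes above 0. The median was 0.07 with the length and GC trend subtracted and 0.05 under 3 of the other scalings. The genes past 0.5 were Perp, a desmosome and death-associated membrane protein, at 1.40 (0.81 to 2.09), the kinase Plk3 at 0.96 (0.73 to 1.21), the cytokine Gdf15 at 0.78 (0.58 to 0.98) and the death receptor Tnfrsf10b at 0.61 (0.52 to 0.69). Perp had 30.8, 49.96 and 83.1 normalized counts at 0.2, 8 and 64 kPa, and is thus a low gene. It reached the minimum mean of 50 only through the stiff library, where it was highest, so its place among the 4 depends on that filter. Plk3 had 220, 303 and 431 normalized counts, in the order of stiffness, whereas Gdf15 had 335, 304 and 575. On the other side lay Ddb2, a damage sensor of nucleotide excision repair, at -0.47 (-1.12 to 0.15), and Sesn1, a sestrin that restrains mTORC1, at -0.41 (-0.58 to -0.24). Sesn1 was at 676, 705 and 510 normalized counts, so like Trp53inp1 it was lower in the stiff library alone. Gdf15 is also induced by other stresses, and the list as a whole is not specific to p53.

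Of 25 regulators and partners of p53, 24 could be counted, with 4 higher and 0 lower by 0.5 between stiff and soft, where 11.8% of all genes were higher and 3.77% lower, and a median of -0.05, which ran from -0.11 to -0.01 under the other scalings and the trend. The 4 were Crebbp at 1.29 and Ep300 at 0.94, acetyltransferases that modify p53, the kinase Hipk2 at 1.01 and the p53 inhibitor Ppp1r13l at 0.67. These values shrank to 0.70, 0.43, 0.32 and 0.26 when the length and GC trend was subtracted, which left only Crebbp past 0.5. The lowest were the checkpoint kinases Chek1 (-0.41, interval -0.63 to -0.19) and Chek2 (-0.40, interval -0.60 to -0.21). Mdm4, the relative of Mdm2 that inhibits p53, was at -0.10 (-0.23 to 0.03).

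Of 4 other inhibitors of cyclin-dependent kinases, 3 had enough reads. All 3 were below 0 between stiff and soft, as were 48.9% of all genes, and none was past 0.5, as were 15.6%, so these 3 genes say little of the group. The ratios were those of Cdkn2c at -0.36 (-0.50 to -0.23), Cdkn2d at -0.24 (-0.39 to -0.09) and Cdkn1b at -0.12 (-0.25 to 0.01), or -0.05 after correction for length and GC content. Cdkn2c, which encodes p18 Ink4c, was at 1113, 1057 and 864 normalized counts, and Cdkn2d, which encodes p19 Ink4d, at 837, 783 and 708. Cdkn1c was below the minimum mean, at 30.8, 25.5 and 16.4 normalized counts.

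The machinery that these inhibitors act on showed no common direction. Of 20 genes for G1 cyclins, their kinases, the pocket proteins and E2F factors, 3 were higher and 0 lower by 0.5 between stiff and soft (all genes: 11.8% and 3.77%), and 10 lay on each side of 0. The 3 were E2f2 at 0.68, E2f7 at 0.67 and E2f8 at 0.53, of which E2f7 and E2f8 are repressors. Correction for length and GC content gave 0.46, 0.56 and 0.50, so that E2f2 no longer passed and E2f8 lay at the threshold. Ccne2, a cyclin of S phase entry, was at -0.42 (-0.53 to -0.31), and the pocket protein gene Rbl1 at -0.36 (-0.48 to -0.24).

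The 15 proliferation markers had none past 0.5 between stiff and soft, against 15.6% of all genes, and 12 were below 0, against 48.9% of all genes, with a median of -0.25. Bub1, of the spindle checkpoint, was at -0.48 (-0.63 to -0.34), Cdk1, the mitotic kinase, at -0.35 (-0.42 to -0.27), and Mki67 and Top2a were at 0.19 (-0.18 to 0.57) and 0.07 (-0.01 to 0.15). After correction for length and GC content Mki67 turned to -0.05 and Top2a was at 0.11. Between stiff and intermediate 14 of the 15 were below 0, again against 48.9% of all genes. All 12 macrophage markers were higher in the stiff than in the soft library, with a median log2 ratio of 1.25. Their part in the lower values of the proliferation markers was not tested.

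**Figure D4:**
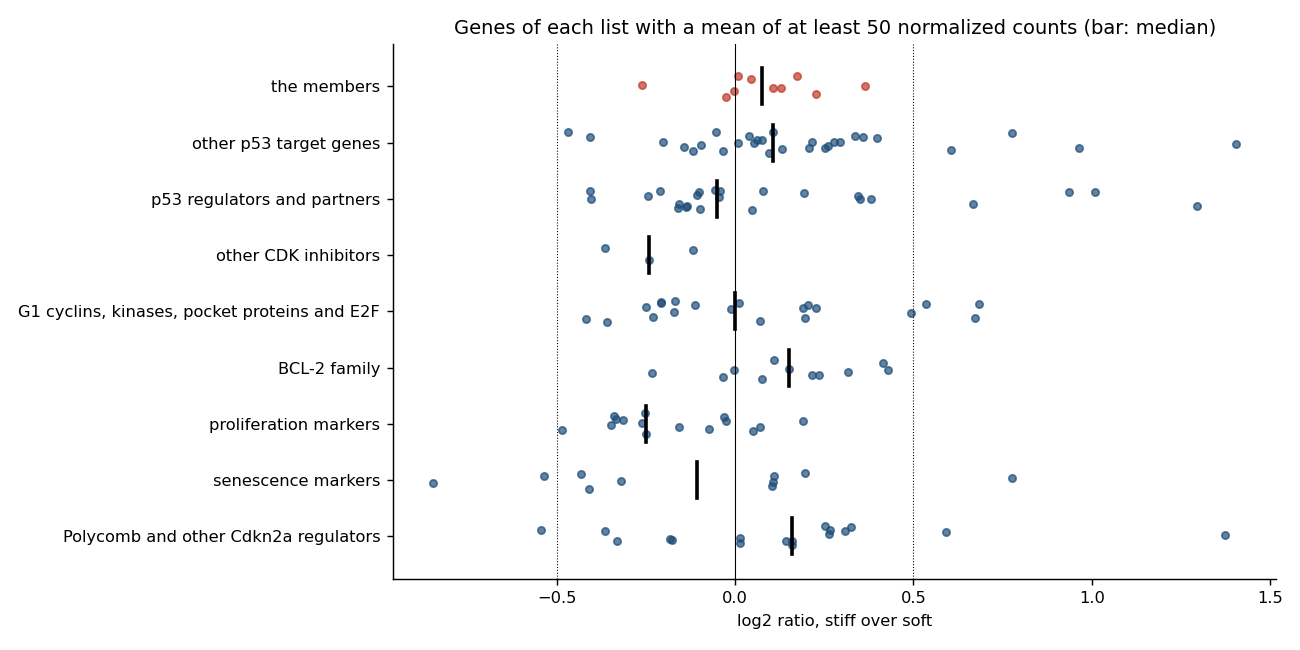
Log2 ratio of stiff to soft (horizontal axis) for the members and for the genes of 8 related lists whose mean reached 50 normalized counts, 1 point per gene, with the median of each list as a bar and dotted lines at 0.5 in either direction. The members lie between -0.26 and 0.37, the proliferation markers have their median at -0.25, and single genes of other lists lie beyond 1.

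Of the 14 genes of the BCL-2 family, 11 had enough reads, and 0 were past 0.5 in either direction between stiff and soft, against 15.6% of all genes, with a median of 0.15, or 0.06 after correction for length and GC content. The protective members Bcl2l2 and Bcl2a1b were the highest, at 0.43 (0.28 to 0.58) and 0.42 (-0.19 to 1.04). The lowest of the 11 were the BH3-only genes Bad at -0.23 (-0.35 to -0.12) and Pmaip1, another p53 target, at -0.03 (-0.27 to 0.20). After that correction Bcl2a1b passed 0.5, at 0.54, and Pmaip1 turned to 0.11. Bak1, which acts in parallel with Bax, was at 0.24 (0.16 to 0.31), and Hrk had no read in any library. Bmf, another BH3-only gene, fell just short of the minimum mean, with 57.4, 57.5 and 33.8 normalized counts at 0.2, 8 and 64 kPa and a log2 ratio of stiff to soft of -0.75 (-1.43 to -0.12).

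Of 10 genes often used as senescence markers, 1 was higher by 0.5 between stiff and soft (Gdf15, given above) and 2 were lower, beside 11.8% and 3.77% of all genes. Igfbp5 was at -0.85 (-0.91 to -0.78) and the chromatin protein gene Hmgb2 at -0.54 (-0.67 to -0.41). After correction for length and GC content Igfbp5 was at -1.04 and Hmgb2 at -0.37, which no longer passed 0.5. Lmnb1, which is low in senescent cells, was at 0.10 (-0.01 to 0.22), which turned to -0.04 after the same correction. The list mixes genes known to rise with genes known to fall in senescent cells, so its counts give no direction.

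Of 17 Polycomb and other regulators of the Cdkn2a locus, 2 were higher and 1 lower by 0.5 between stiff and soft, the shares of all genes being 11.8% and 3.77%. Kdm6b, a demethylase of the Polycomb mark, was at 212, 427 and 552 normalized counts at 0.2, 8 and 64 kPa, a log2 ratio of stiff to soft of 1.37 (1.14 to 1.62), which was 0.74 with the length and GC trend subtracted. Zbtb7a, a repressor of Arf, was at 0.59 (0.48 to 0.70), and at 0.11 with the trend subtracted. Id1 was at -0.54 (-0.61 to -0.48), and at -0.49, short of 0.5, with the trend subtracted. Bmi1, the Polycomb repressor of Cdkn2a, was at -0.36 (-0.45 to -0.27), or -0.23 with the trend subtracted.

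The genes most like a member were those nearest to it in the pair of log2 ratios, intermediate to soft and stiff to intermediate, among 10623 named genes whose mean reached 100 normalized counts. For Trp53 they were Sh3kbp1, Pop1 and Mrc2, for Cdkn1a Mif, Efl1 and Il6st, and for Mdm2 Rhno1, Zfp580 and Nfkbib. Over 3 libraries such likeness is common. Within a distance of 0.1 there were 422 genes for Trp53, 936 for Cdkn1a and 1177 for Mdm2.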

How the data were processed

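The deposited values are a linear signal: counts per gene that the authors had normalized with 1 factor for each library, per the file names and the values. The 3 deposited files hold the same table. The submitters' processing notes name bcl2fastq 2.20.0, STAR 2.7.9a, featureCounts of Subread 2.0.1, DESeq2 1.34.0 and GRCm39. The annotation and strand setting are not given in the sources used here. Dividing a column by its smallest positive value gave whole numbers, within 0.01, for 100% of the genes, and these were taken as reads. A count test needs replicates and was not made.

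Log2 ratios used the deposited values with a pseudocount of 1, which understates the change of low genes. Shares of all genes cover those with a mean of at least 50. Samples were grouped by their titles. The length and GC trend was fitted locally and robustly to the 300 genes nearest in log2 length and GC content, among genes whose mean reached 10. Genes, lengths and exons are from GENCODE vM39 (GRCm39). Named genes were the members and, per list, the genes past 0.5 or otherwise the 2 largest in a direction. Genes named beside these (Mdm4, Bak1, Bmf, Hrk, Lmnb1, Bmi1, Cdkn1b, Cdkn1c) were chosen after their values were seen. The members and lists were chosen with earlier results of these data known. One gene of the senescence list is not reported here and was left out of that list's counts. Ratios and trend were tested on simulated data. Python 3.11.15, numpy 2.4.6, pandas 2.3.3 and scipy 1.17.1 were used.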

Additional observations from a re-analysis of the deposited data

How the results depend on the processing

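Alternatives were pseudocounts of 0.1 and 10, 4 other scalings, the length and GC trend, other minimum means and a lower threshold. No member reached 0.5 under any pseudocount, scaling, minimum mean or the trend, and the largest ratio in size was 0.39. At a threshold of 0.25, by construction, 2 members passed between stiff and soft (Trp53 and Trp53inp1), 1 between intermediate and soft (Cdkn2a) and 2 between stiff and intermediate (Cdkn2a and Trp53inp1), against 38.9%, 18.3% and 28.7% of all genes tested. With the trend subtracted Trp53inp1 no longer passed (-0.08 and -0.12), nor did Cdkn2a between intermediate and soft (-0.23), while Ccng1 did, at 0.26 between stiff and soft and 0.29 between stiff and intermediate. Of 210 alternative values of the 30 member ratios, 22 left the counting interval, in 11 ratios, and 12 changed sign, all 12 in ratios whose interval included 0. The other scalings shifted the median stiff to soft ratio of all genes by -0.01 to -0.06. Under the lowest of them Trp53 was at 0.30, Cdkn1a at 0.17, Mdm2 at 0.11 and Ccng1 at 0.04. The median of the Polycomb list between stiff and soft turned to -0.04 with the trend subtracted. Depth limits Cdkn2a and Bbc3, with 117 to 154 reads per library. No paired analysis was possible because each level has 1 library, and for the same reason no library could be left out.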
